A study of Homo sapiens with 9 samples.

Results

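The genes described are 10 members of the YAP and TEAD pathway, taken by symbol from a table of 60675 Ensembl genes: YAP1, WWTR1, TEAD1, TEAD4, CYR61, CTGF, ANKRD1, AMOTL2, AJUBA and LATS2. All 10 were found in GENCODE 29, which names the genes now called CCN1 and CCN2 as CYR61 and CTGF, and all 10 were among the 13264 genes that passed the filter on low counts. YAP1 and TAZ (the product of WWTR1) are coactivators that bind no DNA themselves and act through the TEAD transcription factors. The Hippo kinases, which end in LATS1 and LATS2, phosphorylate YAP1 and TAZ and so keep them out of the nucleus. When the coactivators are nuclear, they raise genes such as CYR61, CTGF, ANKRD1 and AMOTL2, and the activity itself is set mainly by protein phosphorylation and location, which RNA counts do not measure.

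The libraries came from HCC827, an established human lung adenocarcinoma line with an activating EGFR mutation. The cells carried a stable short hairpin RNA: a non-silencing one in the control group (NS), and one against CBX5, named G1 or G7, in the other groups. CBX5 encodes the heterochromatin protein HP1 alpha. Each group had 3 libraries, and all 9 came from cells grown alike in DMEM with serum. The series' title concerns loss of CBX5 and resistance to EGFR inhibitors, and no inhibitor is named in the labels of these samples. The labels do not state whether the replicates of a hairpin came from separate transductions or clones, so p-values measure the spread between these libraries.

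Library totals ran from 12701561 to 22372353 counts. CBX5 itself had 369 ± 8.11 CPM (read counts scaled to a common library size, with TMM, edgeR's correction for composition; SD, n = 3) with NS, 142 ± 0.595 with G1 and 203 ± 1.54 with G7. G7 replicate 3 stood apart: it had the highest mitochondrial share (19.8% against 13.4% to 17.7% in the other libraries) and its counts differed from those of the other G7 libraries by 22.6 and 17.9 (chi-square over its degrees of freedom), against 1.46 between those libraries. Without it the members called below were again 5, 1 and 5. All 8 fixed epithelial markers were tested, and their summed level ran from 9859 to 10848 CPM with NS, 13918 to 14112 with G1 and 11640 to 12334 with G7. With G1, 6 of the 8 were higher (4 with upper quartile scaling) and 2 lower, beside 30.4% and 28.7% of all genes tested. The 2 lower were ELF3 with a log2 change of -0.64 (edgeR's adjusted p = 3.69e-08) and ERBB3 with -0.37 (1.17e-06). Of 12 markers of fibroblasts and other mesenchymal cells, which are usually rich in YAP targets, 5 or 6 were at 0 counts in every library, among them LUM, THY1 and ACTA2. Absent RNA and reads lost in counting were not told apart for these zeros. The 12 summed to 22.05 to 23.7 CPM with NS, 18.9 to 20.7 with G1 and 20.2 to 21.8 with G7, most of it COL1A1, which was not called. The other 2 that passed the filter were lower with G1: COL6A3 by a log2 change of -0.79 (adjusted p = 4.43e-04) and TAGLN by -0.82 (0.0162), the latter not called without NS replicate 1 or G1 replicate 1 or 3. None of the 3 was called with G7, beside 22.7% of all genes tested, and 0 had an unadjusted p under 0.05. Of all 13264 genes, 2554 were higher and 2041 lower at that unadjusted threshold. VIM did not pass the filter. The 5 blood cell markers summed to at most 1.49 CPM. In bulk RNA, fewer cells that express a gene and less RNA per cell cannot be told apart.

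The core of the element that TEAD factors bind reads GGAATG on one strand and CATTCC on the other, and 2 promoters that hold it are printed here as examples. RefSeq promoter windows (GRCh38.p14, 250 bases before to 50 after a start site) were found for 7 members, with 10 windows in all. There was none for TEAD1, TEAD4 or CYR61. CTGF, the classical reporter gene of the pathway, and YAP1 are shown from 250 to 11 bases before the start, 5′ to 3′ along the gene, with GGAATG in capitals. CTGF lies at chr6:131951383-131951622 on the minus strand and YAP1 at chr11:102110197-102110436 on the plus strand.
CTGF: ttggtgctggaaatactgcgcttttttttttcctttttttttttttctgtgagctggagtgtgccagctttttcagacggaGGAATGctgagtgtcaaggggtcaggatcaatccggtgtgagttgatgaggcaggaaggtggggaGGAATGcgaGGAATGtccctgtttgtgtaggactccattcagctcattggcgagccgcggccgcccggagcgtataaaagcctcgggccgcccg
YAP1: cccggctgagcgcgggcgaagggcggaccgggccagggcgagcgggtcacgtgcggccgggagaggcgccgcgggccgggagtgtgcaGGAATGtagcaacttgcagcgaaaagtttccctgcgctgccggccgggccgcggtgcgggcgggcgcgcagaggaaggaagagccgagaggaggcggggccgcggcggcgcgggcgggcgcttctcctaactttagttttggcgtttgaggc

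CTGF held 3 matches, beginning 169, 104 and 95 bases before the start, of which the latter pair lie close together on the same strand. ANKRD1, a cardiac ankyrin repeat gene often read out for YAP activity, held 2 matches and also 1 match to the AP-1 core TGANTCA. AMOTL2, which encodes an angiomotin that holds YAP1 in the cytoplasm, held 1 match on the other strand in the window of 1 of its 2 start sites. AJUBA held 1 match, 59 bases before 1 of its start sites, and LATS2 held 1 after its start. For ANKRD1 and AMOTL2, the 30 bases around each TEAD core match, with the core in capitals, are given next. The ANKRD1 stretches lie at chr10:90921290-90921319 and chr10:90921198-90921227 and the AMOTL2 stretch at chr3:134374499-134374528, all on the minus strand.
ANKRD1 upstream match: atcaccaccaaaGGAATGgccctctcacat
ANKRD1 downstream match: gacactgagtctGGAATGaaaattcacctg
AMOTL2: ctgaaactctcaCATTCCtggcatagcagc

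Of the 10 member windows, 6 held the TEAD core on either strand. Of all 35116 promoter windows in the same table, 14% held it and 7.71% held the AP-1 core. The members were chosen as pathway genes, so these matches describe the sequence and no binding was measured.

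Levels of different genes were compared per length, as CPM per kilobase of merged exons. With NS the order was AMOTL2 at 44.2 ± 2.03 (SD, n = 3), YAP1 at 38.99 ± 0.555, TEAD1 at 20.8 ± 1.01, WWTR1 at 19.0 ± 0.402, TEAD4 at 12.7 ± 0.652, CYR61 at 11.7 ± 0.864, LATS2 at 3.74 ± 0.157, CTGF at 1.30 ± 0.333, ANKRD1 at 0.930 ± 0.267 and AJUBA at 0.130 ± 0.0255. The libraries of TEAD4 and CYR61 overlapped, as did those of CTGF and ANKRD1, and no other neighbours in this order did. AMOTL2 and YAP1 thus stood above 94.5% and 93.5% of the 11734 tested coding genes, whereas CTGF, ANKRD1 and AJUBA stood above 21.3%, 17.5% and 2.27%. The same order held with G7. With G1, YAP1 at 44.5 ± 0.75 stood first and AMOTL2 at 34.2 ± 1.1 next. When the longest transcript replaced the merged exons, WWTR1 (31.8 with NS) stood above TEAD1 (25.3) in each group.

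**Figure D1:**
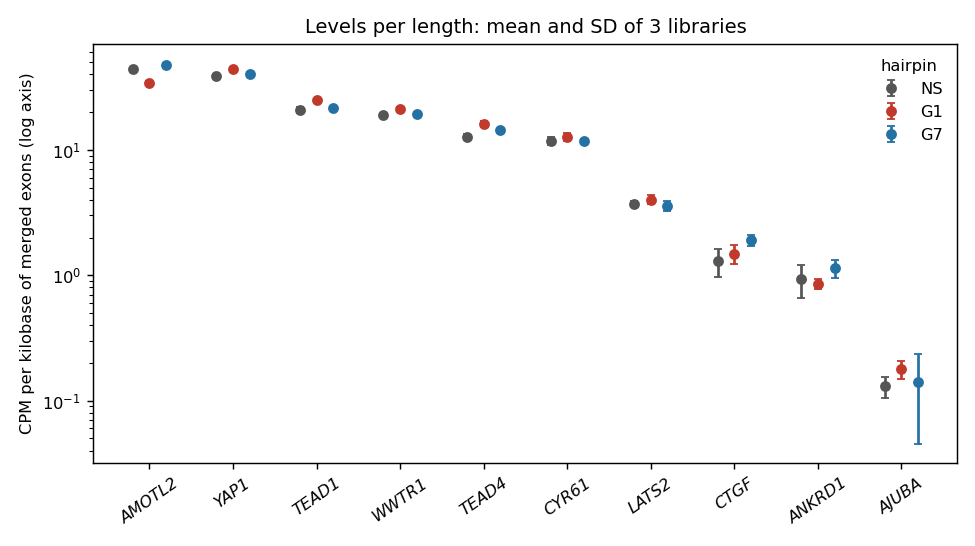
Levels per length of the 10 genes, as CPM per kilobase of merged exons on a log axis, for the NS, G1 and G7 hairpins (mean and SD of 3 libraries). AMOTL2 and YAP1 are the highest and AJUBA the lowest in each group, and AMOTL2 falls below YAP1 with G1.

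The ratio of YAP1 to its paralog WWTR1, per length, was 2.05 ± 0.0207 with NS, 2.08 ± 0.0949 with G1 and 2.08 ± 0.098 with G7 (SD, n = 3). It was 1.43 with NS when the longest transcript replaced the merged exons. The ratio of YAP1 to AMOTL2 was 0.884 ± 0.0533 with NS, 0.846 ± 0.0576 with G7 and 1.3 ± 0.0544 with G1 (SD, n = 3), and the G1 libraries did not overlap the others.

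Hairpin G1 was compared with NS to ask how the pathway's RNAs stood in the cells with the lower CBX5 level. The coactivators YAP1 and WWTR1 and the factors TEAD1 and TEAD4 were each higher with G1, by 12.3% to 26.5%, and AMOTL2 was lower by 22.6%. The other 5 members, among them the reporters CYR61, CTGF and ANKRD1, were not called. A gene was called at an adjusted p under 0.05 by the quasi-likelihood test of edgeR, adjusted after Benjamini and Hochberg over all 13264 genes, and every adjusted p below comes from that fit unless another tool is named. So 5 of 10 members were called, beside 59.1% of all genes tested. Of these, 4 were higher and 1 lower, beside 30.4% and 28.7% of all genes (4031 and 3806 genes, or 3066 and 4815 with upper quartile scaling). The G1 and NS libraries did not overlap for 64.1% of all genes. The median log2 change was 0.16 over the members and -0.01 over all genes.

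YAP1 (ENSG00000137693, GRCh38 chromosome 11, 102110461 to 102233423) had 245, 249 and 242 CPM in the NS libraries, 276, 285 and 279 with G1, and 252, 262 and 245 with G7. All G1 libraries lay above all others, while NS and G7 overlapped. The log2 change was 0.19 ± 0.040 (SE) with G1 at adjusted p = 4.55e-04, with a 95% interval of 0.11 to 0.28. With G7 it was 0.04, with an interval of -0.04 to 0.13 and adjusted p = 0.487.

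WWTR1 (ENSG00000018408, chromosome 3, 149517235 to 149736714), which encodes TAZ, had 162, 162 and 156 CPM with NS, 184, 174 and 182 with G1, and 159.9, 161 and 166 with G7. Again the G1 libraries alone stood apart. The log2 change was 0.17 ± 0.041 (SE) with G1 at adjusted p = 0.00191, and 0.02 with G7, with an interval of -0.07 to 0.11 and adjusted p = 0.776. The call with G1 ended with upper quartile scaling (0.08, adjusted p = 0.0941), which put the median of all genes at -0.10.

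TEAD1 (ENSG00000187079, chromosome 11, 12674591 to 12944483), the most abundant TEAD factor measured here per length, had 213, 225 and 204 CPM with NS, 259.6, 247 and 259 with G1, and 217, 224 and 229 with G7. Its log2 change was 0.25 ± 0.044 (SE) with G1 at adjusted p = 7.37e-05, and 0.06 with G7 at adjusted p = 0.346. TEAD4 (ENSG00000197905, chromosome 12, 2959330 to 3040673) had 29.6, 27.1 and 29.6 CPM with NS, 38.8, 35.1 and 35.4 with G1, and 31.9, 32.5 and 33.1 with G7. These 3 groups did not overlap, with G7 between the others. The log2 change of TEAD4 was 0.34 ± 0.063 (SE) with G1 at adjusted p = 1.53e-04, and 0.175 with G7, with an interval of 0.04 to 0.31 and adjusted p = 0.0536, which missed the threshold.

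AMOTL2 (ENSG00000114019, chromosome 3, 134355874 to 134375479) was the only member called lower. It had 264, 252 and 277 CPM with NS, 202, 199.7 and 212 with G1, and 292, 273 and 289 with G7. Every G1 library lay below every NS and G7 library, and NS and G7 overlapped. The log2 change was -0.37 ± 0.045 (SE) with G1, with an interval of -0.46 to -0.27 and adjusted p = 1.42e-06, and 41.0% of all genes tested changed by more in either direction. With G7 it was 0.11, with an interval of 0.01 to 0.20 and adjusted p = 0.0954. Without NS replicate 3 that value was 0.14 at adjusted p = 0.0402.

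**Figure D2:**
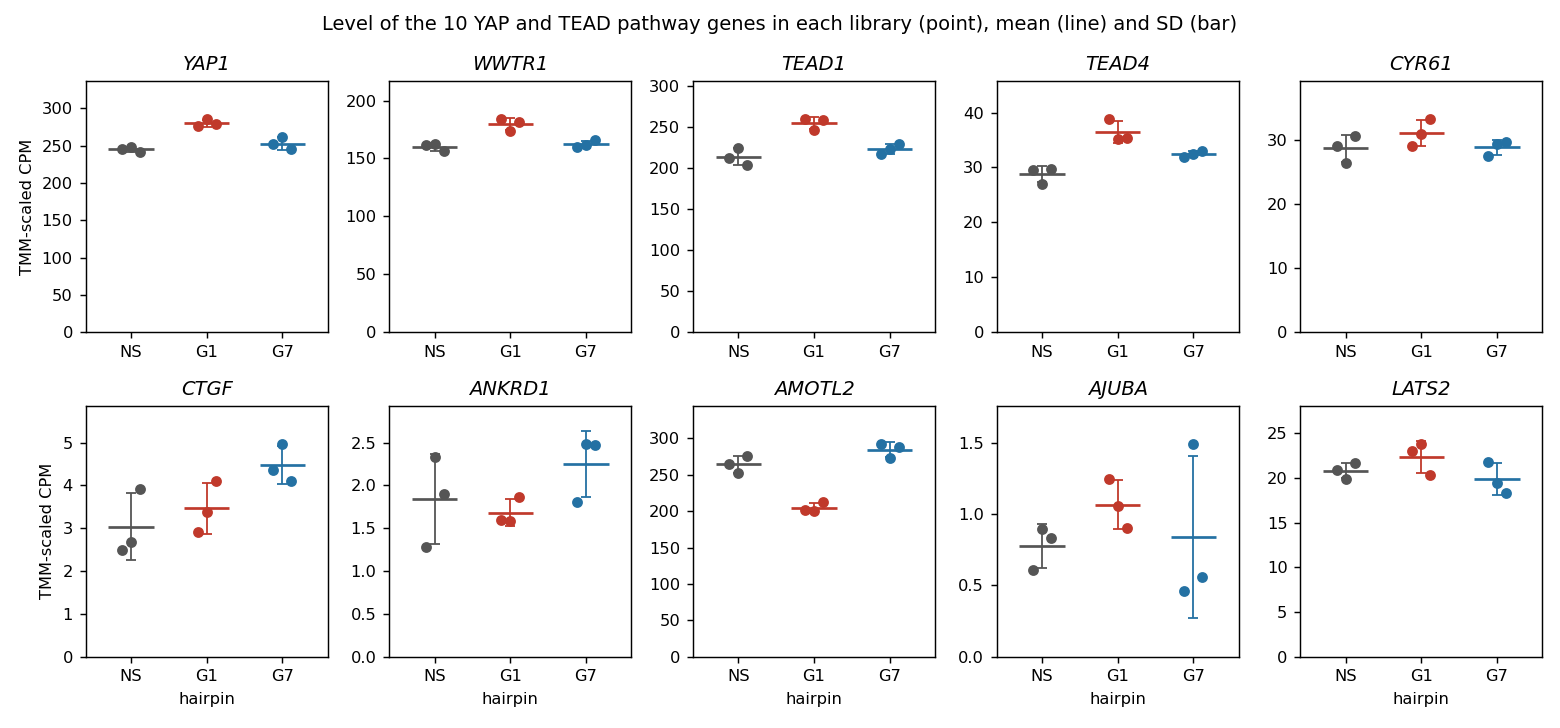
TMM-scaled CPM of each of the 10 genes by hairpin group, with each library as a point, the mean as a line and the SD as a bar; each panel's axis starts at 0. The G1 points of YAP1, WWTR1, TEAD1 and TEAD4 lie above, and those of AMOTL2 below, all NS points, while CYR61, CTGF, ANKRD1 and LATS2 overlap between G1 and NS.

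The secreted CCN proteins CYR61 and CTGF are the usual readouts of YAP and TEAD activity. CYR61 (ENSG00000142871, chromosome 1, 85580761 to 85583962) had 29.2, 26.5 and 30.7 CPM with NS, 29.1, 31.1 and 33.3 with G1, and 27.6, 29.5 and 29.8 with G7. The groups overlapped throughout. Its log2 change was 0.11 with G1, with an interval of -0.04 to 0.26 and adjusted p = 0.189, and 0.01 with G7, with an interval of -0.14 to 0.15 and adjusted p = 0.973. These intervals reach at most a rise of 19.7% with G1 and of 11.2% with G7.

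CTGF (ENSG00000118523, chromosome 6, 131948176 to 131951373) was sparse, at 33, 39 and 66 counts in the NS libraries, 49, 64 and 64 with G1, and 94, 80 and 88 with G7. On the CPM scale these were 2.49, 2.68 and 3.93 with NS, 2.90, 3.37 and 4.11 with G1, and 4.36, 4.97 and 4.10 with G7. The G7 libraries lay above the NS libraries, while those of G1 overlapped both. The log2 change with G7 was 0.52 ± 0.18 (SE) at adjusted p = 0.0394, with an interval of 0.15 to 0.90. CTGF was the only member called with G7, 1 of 10 beside 22.7% of all genes tested. It was higher, as were 13.1% of all genes, and 0 members were called lower beside 9.64% (1735 and 1279 genes, or 1398 and 1603 with upper quartile scaling). The G7 and NS libraries did not overlap for 35.3% of all genes. At an unadjusted p under 0.05, 3 members were higher and 0 lower, beside 2554 and 2041 of all 13264 genes. The CTGF call ended with DESeq2 (0.53, adjusted p = 0.0799), with upper quartile scaling (0.50, 0.0540) and in libraries thinned to the shallowest (0.45, 0.106). Leaving out a single library ended it as well for 5 of the 9: NS replicate 1 (0.41, adjusted p = 0.158), NS replicate 2 (0.44, 0.147), the first G1 library (0.51, 0.0517), the first G7 library (0.54, 0.0689) and G7 replicate 2 (0.46, 0.112). With G1 the log2 change was 0.16, with an interval of -0.24 to 0.56 and adjusted p = 0.491.

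ANKRD1 (ENSG00000148677, chromosome 10, 90912096 to 90921276) had 17, 34 and 32 counts with NS, 27, 30 and 29 with G1, and 39, 40 and 53 with G7. Its log2 changes of -0.15 with G1 (adjusted p = 0.601) and 0.26 with G7 (adjusted p = 0.419) had intervals of -0.65 to 0.34 and -0.19 to 0.72. AJUBA (ENSG00000129474, chromosome 14, 22971174 to 22982642), a LIM protein that binds LATS kinases and thereby limits their action on YAP1, had between 8 and 24 counts per library. Its intervals were -0.35 to 1.23 with G1 and -0.82 to 0.81 with G7, the former reaching a rise of 135%. The G1 and NS libraries of AJUBA did not overlap (0.44, adjusted p = 0.325). LATS2 (ENSG00000150457, chromosome 13, 20973032 to 21061547), the kinase that is itself a YAP target, had 20.9, 19.9 and 21.7 CPM with NS, 23.0, 23.8 and 20.3 with G1, and 21.8, 19.4 and 18.3 with G7. The groups overlapped, with log2 changes of 0.11 with G1 (adjusted p = 0.286) and -0.07 with G7 (adjusted p = 0.601).

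**Figure D3:**
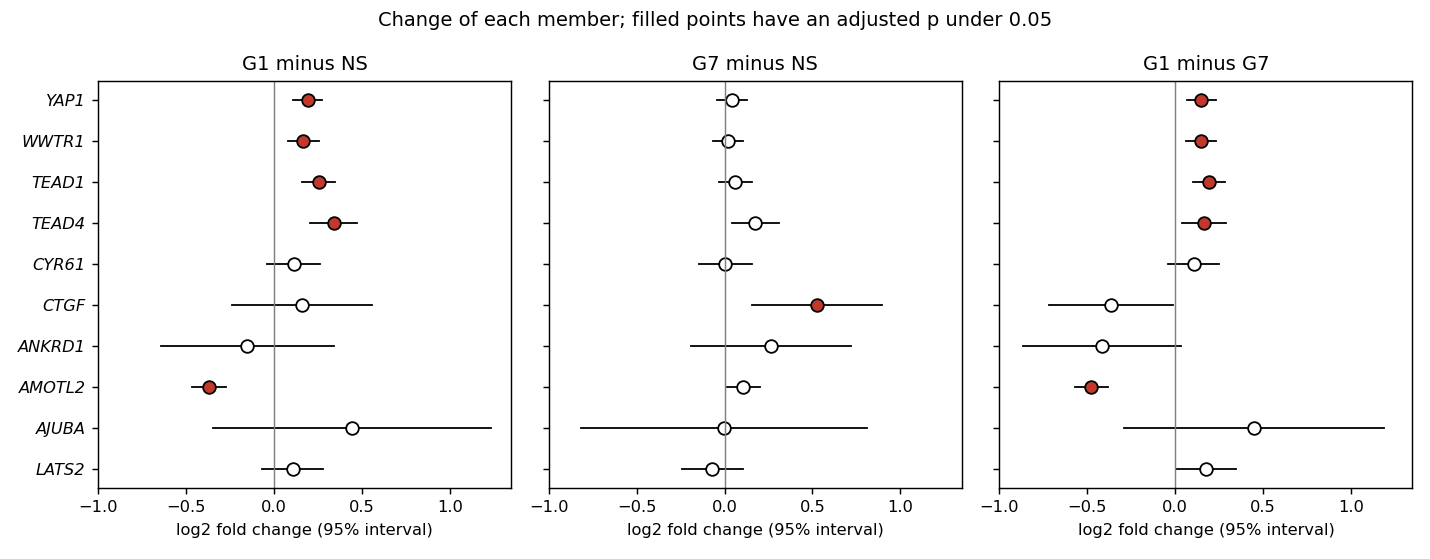
Log2 fold change of each member with its 95% interval for G1 minus NS, G7 minus NS and G1 minus G7, from edgeR's quasi-likelihood fit. Filled points have an adjusted p under 0.05: YAP1, WWTR1, TEAD1, TEAD4 and AMOTL2 for G1 minus NS and for G1 minus G7, and CTGF alone for G7 minus NS.

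The hairpins were then set against each other, since both target CBX5 but left it at different levels. The same 5 members were called as with G1 against NS, beside 44.9% of all genes tested, and these comparisons share the G1 libraries. Of these, 4 were higher and 1 lower with G1, beside 23.3% and 21.6% of all genes (3092 and 2870 genes, or 2346 and 3751 with upper quartile scaling), and G1 and G7 did not overlap for 53.6%. The log2 difference of YAP1, higher with G1, was 0.15 (adjusted p = 0.00508), WWTR1 by 0.15 (0.00655), TEAD1 by 0.19 (0.00152) and TEAD4 by 0.16 (0.0339). AMOTL2 was lower by a difference of -0.48 ± 0.045 (SE), with an interval of -0.57 to -0.38 and adjusted p = 1.25e-07. The calls of YAP1, WWTR1 and TEAD4 ended with upper quartile scaling, and that of TEAD4 also with DESeq2 or without G1 replicate 1, G7 replicate 1 or G7 replicate 2. The differences of CTGF (-0.37, adjusted p = 0.0839), ANKRD1 (-0.42, 0.123) and LATS2 (0.175, 0.0852) were not called, although that of CTGF was called with upper quartile scaling (-0.43, 0.0478) and without G1 replicate 3 (-0.49, 0.0403). LATS2 was called with no filter on low counts (0.20, 0.0470), without G1 replicate 3 (0.24, adjusted p = 0.0335) or G7 replicate 1 (0.25, 0.0237), and AJUBA without G7 replicate 2 (1.06, adjusted p = 0.0155, against 0.45 with all libraries).

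The remaining TEAD factors and the Vestigial-like cofactors, which also bind TEAD factors, were taken as a list of 10 with the 4 members above. With G1, 6 of 9 tested were higher and 0 lower, beside 30.4% and 28.7% of all genes, and 3 were higher with upper quartile scaling. At an unadjusted p under 0.05, 0 were again lower, beside 4128 of all 13264 genes. TEAD2 rose by 0.28 on the log2 scale (adjusted p = 0.0205) and VGLL1 by 0.145 (adjusted p = 0.0410). TEAD2 lost its call with upper quartile scaling and without NS replicate 1 or 3 or G1 replicate 3, and VGLL1 lost its call in 7 of 18 alternatives. With G7, 0 of 9 were called in edgeR's test, beside 22.7% of all genes. At an unadjusted p under 0.05, 2 of the 9 were higher and 0 lower, beside 2554 and 2041 of all 13264 genes. The median log2 change was 0.17 with G1 and 0.06 with G7.

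Upstream of the coactivators, a list of 31 Hippo kinases, scaffolds and polarity genes was followed, of which 29 were tested. With G1, 17 were higher and 5 lower (11 and 8 with upper quartile scaling), with a median log2 change of 0.19. Over all genes tested, 30.4% were higher and 28.7% lower. With G7, 5 were higher and 2 lower beside 13.1% and 9.64% of all genes. The count of higher calls was 2 with DESeq2, without NS replicate 1 or without G7 replicate 1, 3 with upper quartile scaling, with the 2 groups alone or without NS replicate 2, G1 replicate 1 or G7 replicate 2, and 7 without NS replicate 3. The largest rise was that of NF2, which encodes merlin, the membrane scaffold that brings LATS kinases to their activators. NF2 had 35.4, 33.0 and 36.7 CPM with NS, 71.3, 60.4 and 64.2 with G1, and 49.1, 49.5 and 43.0 with G7. The 3 groups did not overlap and G7 lay between the others. Its log2 change was 0.90 with G1 (adjusted p = 4.43e-09) and 0.43 with G7 (adjusted p = 3.41e-04). The scaffolds of the polarity complexes moved unequally: SCRIB rose by 0.52 with G1 and by 0.21 with G7 (adjusted p = 0.0482, lost in 14 of 18 alternatives), whereas PATJ changed by -0.52 with G1 and -0.21 with G7.

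Among the kinases and their cofactors, STK3, which encodes the kinase MST2, rose by 0.31 with G1 and the LATS cofactor MOB1A by 0.295, while STK4, for MST1, rose by 0.11 and lost its call with upper quartile scaling and without NS replicate 1 or 3 or G1 replicate 1 or 3. LATS1 had 60.5, 62.2 and 58.1 CPM with NS, 58.3, 58.8 and 57.4 with G1, and 50.4, 51.2 and 50.6 with G7. It fell with G7 by 0.25 on the log2 scale (adjusted p = 0.00113), and its change of -0.05 with G1 was not called (adjusted p = 0.391), except with upper quartile scaling. The direct difference of 0.20 between the hairpins was called (adjusted p = 0.00239).

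With G1, AMOTL2 went the other way from its paralogs. AMOT had 95.1, 98.9 and 96.6 CPM with NS, 125, 118 and 122 with G1, and 106, 107 and 107 with G7. Its log2 rise was 0.33 with G1 (adjusted p = 2.56e-06) and 0.14 with G7 (adjusted p = 0.0270), the latter lost in 8 of 18 alternatives. AMOTL1 had 145, 142 and 144 CPM with NS, 195, 188 and 198 with G1, and 152, 149.7 and 159.8 with G7, a rise of 0.43 with G1 (adjusted p = 6.63e-08). With G7, the log2 changes of AMOTL1 (0.10, adjusted p = 0.0934) and AMOTL2 (0.11, 0.0954) had the same sign as that of AMOT and were not called. Of the 3 angiomotin genes, AMOTL2 alone lies in the target signature described next.

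**Figure D4:**
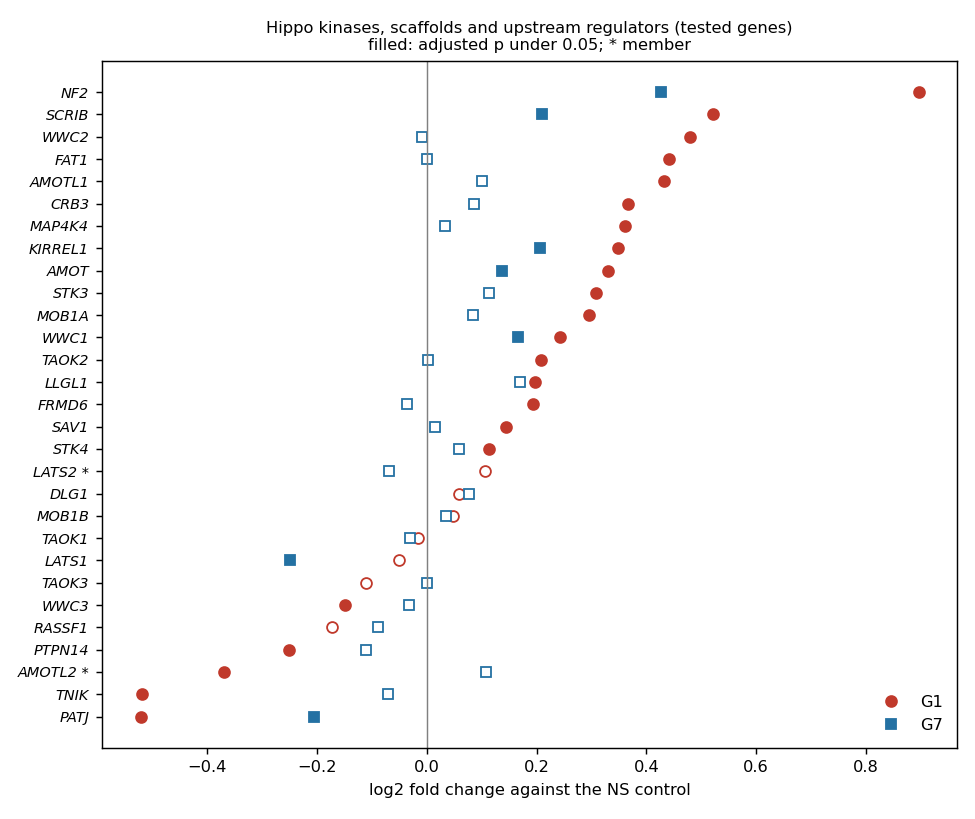
Log2 fold change against NS of the 29 tested Hippo kinases, scaffolds and upstream regulators, ordered by the G1 value; circles are G1, squares G7, and filled symbols have an adjusted p under 0.05. NF2 is highest for both hairpins, PATJ and TNIK are lowest with G1, and AMOTL2 lies at -0.37 with G1 and at 0.11 with G7, the latter not called.

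Downstream, a commonly used signature of 22 YAP and TAZ target genes, which holds 5 of the members, was followed, and 21 were tested. They did not move in 1 direction: with G1, 4 were higher and 6 lower (2 and 7 with upper quartile scaling), with a median log2 change of -0.01, and with G7, 4 were higher and 1 lower (3 and 3 with upper quartile scaling), with a median of 0.01. Without NS replicate 1 the count of higher calls with G7 was 2. Of all genes tested, 30.4% were higher and 28.7% lower with G1, and 13.1% and 9.64% with G7. Their medians were -0.01 and 0.01. The secreted binding protein gene IGFBP3 gave the largest change. It had 142, 152 and 148 CPM with NS, 69.9, 69.6 and 74.1 with G1, and 89.7, 87.7 and 95.5 with G7. Both hairpins lay below NS without overlap, with log2 changes of -1.05 and -0.69 (adjusted p = 2.24e-12 and 1.15e-08).

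The rises were led by FJX1, which encodes a secreted four-jointed homolog, at 1.003 with G1 (adjusted p = 1.28e-05) and 0.61 with G7 (adjusted p = 0.00715), and by the forkhead gene FOXF2, at 0.83 and 0.43 (adjusted p = 5.88e-06 and 0.0126). The FOXF2 call with G7 ended without NS replicate 1 or 3. Other falls with G1 were seen in DOCK5 at -0.34, in the phosphatase gene PTPN14 at -0.25 and in the receptor kinase gene AXL at -0.36 (adjusted p = 0.0319), which lost its call with DESeq2, with no filter on low counts and without NS replicate 1 or 2 or G1 replicate 1 or 3. MYOF, which encodes the membrane repair protein myoferlin, had a log2 change of 0.15 with G7 (adjusted p = 0.0194) and 0.10 with G1 (adjusted p = 0.0618). The MYOF call with G7 ended with the 2 groups alone, and its change with G1 was called in 4 of 18 alternatives.

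**Figure D5:**
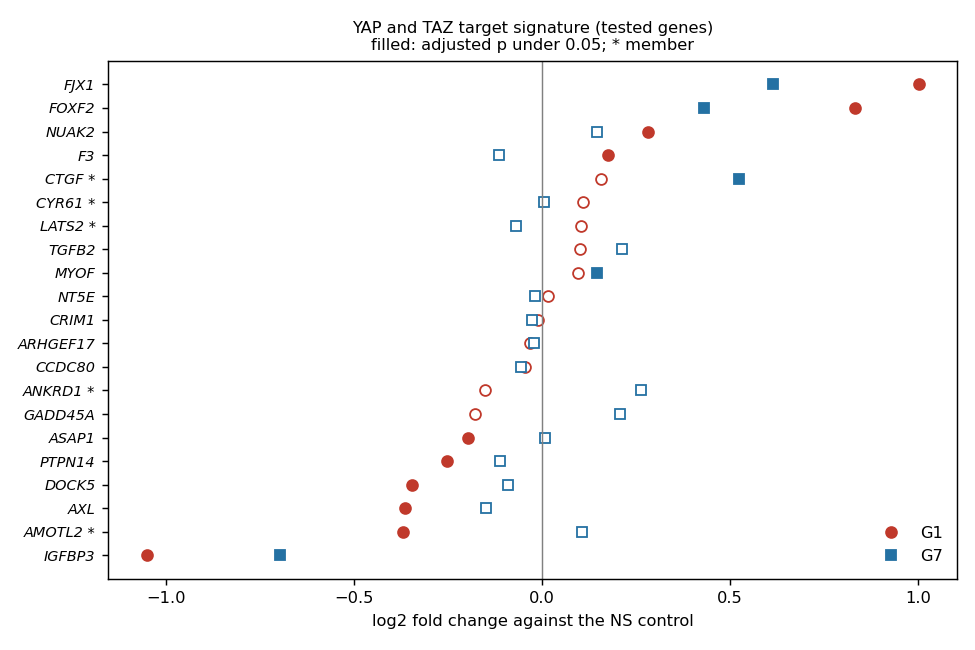
Log2 fold change against NS of the 21 tested genes of the YAP and TAZ target signature, ordered by the G1 value; circles are G1, squares G7, and filled symbols have an adjusted p under 0.05. FJX1 and FOXF2 lie to the right and IGFBP3 to the left for both hairpins, and most of the other genes lie near 0.

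AJUBA's relatives of the zyxin LIM family, which link actin to junctions, were also followed. Of 7 tested, 0 were higher and 2 lower with G1, beside 30.4% and 28.7% of all genes. At an unadjusted p under 0.05 there were 2 higher and 2 lower, beside 4253 and 4128 of all 13264 genes. The higher count was 2 with no filter, with the 2 groups alone and without NS replicate 3 or G7 replicate 3. The lower count was 1 with no filter, with DESeq2 and without NS replicate 3 or G1 replicate 1 or 3, where FBLIM1 (-0.19, adjusted p = 0.0357) lost its call. LPP had 367, 382 and 353 CPM with NS, 207, 193 and 200.2 with G1, and 336, 344 and 365 with G7, a log2 change of -0.88 with G1 (adjusted p = 1.48e-11). Its value of -0.08 with G7 was not called (adjusted p = 0.239), and the direct difference was -0.80 (adjusted p = 1.93e-10). ZYX rose by 0.33 with G7 (adjusted p = 0.00674). Its value of 0.19 with G1 was not called (adjusted p = 0.0526), except in 7 of 18 alternatives. The direct difference of ZYX between the hairpins, -0.135, was not called (adjusted p = 0.171). Of the CCN family, CYR61 and CTGF alone passed the filter, and the other 4 genes had means of at most 0.283 CPM in any group.

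CYR61 and ANKRD1 also respond to serum and handling, so a list of 16 immediate early and heat shock genes was set beside them. With G1, 8 of 13 tested were higher and 5 lower, beside 30.4% and 28.7% of all genes. With G7, 5 were higher and 0 lower, beside 13.1% and 9.64% of all genes. The G7 counts were 3 and 0 with upper quartile scaling, and 5 and 1 at an unadjusted p under 0.05. At that unadjusted threshold, 2554 of all 13264 genes were higher and 2041 lower. The 5 became 3 when any of the first 2 NS or G7 libraries or the first G1 library was left out, and with DESeq2, no filter, the 2 groups alone or no mitochondrially encoded genes. EGR1 changed by -0.98 and FOS by -0.91 with G1, while FOSL1 rose by 0.87 and HSPA1A by 0.575. The list summed to 492 to 517 CPM with NS, 605 to 624 with G1 and 559.8 to 574 with G7. JUNB, DUSP1 and FOSB were listed at 0 counts in all 9 libraries. Whether these zeros reflect absent RNA or reads lost in counting was not tested. The part of these genes, or of the epithelial marker sums, in the changes of the members was not tested.

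In GENCODE 29, exons of a gene on the opposite strand cover 9.97% of YAP1's merged exons (AP000942.2), 9.45% of WWTR1's (WWTR1-AS1) and 8.34% of CTGF's (AL133346.1). All 3 antisense genes were listed at 0 counts in every library. The strand setting of the counting is not given in the sources used here, so the counts of YAP1, WWTR1 and CTGF in those stretches are uncertain. Exons of another gene on the same strand cover 3.12% of AMOTL2's merged exons and 0.836% of AJUBA's. Counts in those stretches are uncertain with any strand setting.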

How the data were processed

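Polyadenylated RNA of 9 libraries was sequenced, in strand-specific libraries per the labels, and the authors deposited 1 table of raw counts by gene, without normalization. The build (hg38, GRCh38) and the tools TopHat2 2.1.0 and HTSeq 0.6.0 come from the submitters' processing notes. Which annotation, strand setting and read filters were applied is not given in the sources used here. Where such counting drops reads that fall on more than 1 gene, overlapping genes come out low.

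Symbols, coordinates and merged exon lengths were taken from GENCODE 29, in which 57055 of 60675 rows were found. The other 3620 rows held 0.025% of the counts. The test was edgeR 4.0.16 (R 4.3.3), with filterByExpr with the groups, TMM scaling, and a quasi-likelihood model with a mean per group over all 9 libraries. The 3 two-sided contrasts were G1 minus NS, G7 minus NS and G1 minus G7. SEs and 95% intervals were derived from the F statistic and its degrees of freedom. Alternatives were RLE and upper quartile scaling, other filters, DESeq2 1.42.0, glmTreat against 1.5-fold, the 2 groups alone, the replicate number as a block, thinning to 12701561 counts, removal of mitochondrially encoded genes, and each library left out in turn. Intervals cover the spread between libraries, and a count of 0 allows up to 3 counts, which is 0.134 to 0.236 CPM, for counting error alone.

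Simulated counts for G1 minus NS held 13103 genes, of which only 50 per fold size were changed. The test called 6% of those at 1.1-fold, 50% at 1.25-fold, 76% at 1.5-fold and 92% at 2-fold, and 7 unchanged genes. In the data, 59.1% of all genes were called for G1 minus NS. The adjustment was thus stricter in the simulation, and these shares do not give the test's sensitivity in the data.

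The members and all lists were chosen with earlier results of these data known. The text names the members, CBX5, list members called in at least 1 contrast (the smallest p-values first), and genes among the 3 nearest to each of 5 members in pattern, of which 1 is not reported here. JUNB, DUSP1, FOSB, LUM, THY1, ACTA2, VIM, COL1A1, COL6A3, TAGLN, ELF3, ERBB3, CSNK1D, CSNK1E and the 3 antisense genes fall outside this rule and were named after their values were seen. Protein sequences were not analysed here.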

Additional observations from a re-analysis of the deposited data

Results flagged for a closer look

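The log2 difference between the hairpins, G1 minus G7, passed edgeR's quasi-likelihood test for 5 of 10 members, beside 44.9% of all genes tested. It was 0.15 for YAP1, 0.15 for WWTR1, 0.19 for TEAD1, 0.16 for TEAD4 and -0.48 for AMOTL2. All 3 G1 libraries lay on 1 side of all 3 G7 libraries for each of these genes, as was the case for 53.6% of all genes tested. For YAP1, WWTR1 and TEAD4 the call depended on the scaling, and AMOTL2 kept its call in each alternative other than the test against 1.5-fold.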

How the results depend on the processing

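Against a change of 1.5-fold, glmTreat called 0 members in each of the 3 contrasts, and 0 at an unadjusted p under 0.05. Of all genes tested, it called 9.18% for G1 minus NS, 0.0754% for G7 minus NS and 2.38% for G1 minus G7. With G1 against NS, 5 members were called in every other alternative except upper quartile scaling, which called 4. With G7 against NS, where 1 was called, upper quartile scaling, DESeq2 and thinned libraries each called 0 (2, 3 and 2 at an unadjusted p under 0.05), and leaving out 1 library gave 0 to 2 (0 when either of the first 2 NS or G7 libraries or the first G1 library was dropped, and 2 without NS replicate 3). Between the hairpins, where 5 were called, upper quartile scaling called 3 (1 higher, 2 lower) and leaving out 1 library gave 4 to 7. Over all genes, upper quartile scaling turned 4031 higher and 3806 lower calls with G1 into 3066 and 4815, 1735 and 1279 with G7 into 1398 and 1603, and 3092 and 2870 between the hairpins into 2346 and 3751. It put the median log2 change of all genes with G1 at -0.10 in place of -0.01. No member reversed its direction while called. With the replicate number as a block, 5, 1 and 5 members were called. The labels do not say that the replicate number marks a shared culture or day, so the numbers were not taken to pair the libraries. Deviations of same-numbered libraries of different groups correlated over 0.1 in 2 of 9 pairs (range -0.0763 to 0.199). For libraries with different numbers this held in 2 of 18 pairs (range -0.191 to 0.186). Without mitochondrially encoded genes the counts were again 5, 1 and 5. CTGF, ANKRD1 and AJUBA had few counts and wide 95% intervals. The part of depth in this, apart from low expression and spread between libraries, was not tested.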

Other observations

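The 14-3-3 proteins hold phosphorylated YAP1 and TAZ in the cytoplasm. Their genes were followed as part of a list of 10. All 7 of them rose with G1, as did 30.4% of all genes tested, and kept that call with upper quartile scaling. SFN, the epithelial form also known as stratifin, had 40.1, 41.1 and 45.3 CPM with NS, 104, 97.6 and 107 with G1, and 54.6, 50.4 and 58.6 with G7, a log2 change of 1.28 with G1 and 0.37 with G7 (edgeR's adjusted p = 4.96e-12 and 4.22e-04). YWHAH rose by 0.82 with G1 and 0.32 with G7, and YWHAQ by 0.66 and 0.24. YWHAG was the only one not called with G7 (0.11, adjusted p = 0.0708), although it was called without G7 replicate 3. YWHAZ (0.155, adjusted p = 0.016) lost its call with G7 without NS replicate 3 or G7 replicate 2. Of all genes tested, 13.1% were higher with G7. Of the genes of YAP turnover in the same list, BTRC rose by 0.22 with G1, and lost that call with upper quartile scaling, while the casein kinase genes CSNK1D and CSNK1E were not called in any contrast, although CSNK1E was called with upper quartile scaling with G1 against NS and against G7.

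Genes whose pattern over the 9 libraries was among the nearest to that of a member, by root mean square difference of centred log2 CPM among 10685 genes, were FAM208B (0.0199) and GOLPH3 (0.0247) for YAP1, and YY1 (0.0195), MYO10 (0.0199) and FAM120A (0.0200) for WWTR1. For CYR61 they were COL6A1 (0.0455), ZNF335 (0.0461) and COMMD7 (0.0488). For CTGF and ANKRD1, which had few counts, the nearest genes were LEMD1 (0.170) and FRG1CP (0.133).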
